A study of Mus musculus with 5 samples.

Results

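The cells described here are 1232 bone marrow cells of the LSK gate in which at least 1 UMI (unique molecular identifier, 1 counted RNA molecule) of Procr and at least 1 of Mecom were read, and none of Dntt. They were chosen by those 3 genes from the 10870 LSK barcodes past a filter (a minimum of 2110 UMIs and of 500 genes, and a mitochondrial share of no more than 10%), and they made up 11.3% of them (exact binomial 95% interval 10.7 to 11.9%). The other 9638 LSK cells past the same filter served as the comparison. The 4 gates of the study held 28850 filtered cells in all. LSK cells are lineage-negative, SCA1-positive, KIT-positive cells, here sorted from the marrow of untreated wild-type C57BL/6 mice. The labels call the donors healthy controls and give neither the age nor the number of the mice. Each gate was 1 library of the 10x Genomics 3' assay, so no value below has a replicate, no test was made, and every interval covers counting error only.

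The LSK gate holds the haematopoietic stem cells of the mouse together with multipotent progenitors that have begun to lean towards the lymphoid, myeloid or megakaryocyte lineages. Stem cells are the rare part of the gate that can rebuild all blood lineages for life; most of them divide seldom. Procr encodes the endothelial protein C receptor (EPCR, CD201), a surface antigen used to enrich stem cells. Mecom encodes the transcription factor EVI1, which stem cells need for their upkeep. Dntt encodes terminal deoxynucleotidyl transferase, which adds bases to antigen receptor gene joints and marks lymphoid-primed progenitors. Hlf, a bZIP transcription factor of the stem cell programme, was not part of the rule. It is a marker in the label of these cells, which were chosen with earlier results known, so it describes them and is no separate check.

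Of the LSK cells, 28.6% held a UMI of Procr, 44.0% one of Mecom and 34.0% one of Dntt. Procr and Mecom were read together in 1608 cells, 14.8%, where the product of the separate shares is 12.6%. Taking away the 376 of these with Dntt left the 1232. Procr was read as 1 UMI in 68.9% of them and Mecom as 1 UMI in 61.4%, and 549 cells passed with 1 UMI of each, the least the rule allows. At the other end 176 cells had 2 or more UMIs of each. No cell held more than 5 UMIs of Procr or 6 of Mecom. Because of this sparse reading, many of the 9638 comparison cells may hold either RNA unread: among them 1499 had Procr alone and 3180 Mecom alone.

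The same rule found almost no cell in the other gates. It took 1 of 3669 common myeloid progenitors (CMP), 3 of 8027 granulocyte-monocyte progenitors (GMP) and none of 6284 megakaryocyte-erythroid progenitors (MEP), where a count of 0 allows a share of up to 0.0477% (3 cells of the total; the exact binomial upper bound is 0.0587%). These libraries were read more deeply, with medians of 6966, 9100 and 12578 UMIs per cell against 5991.5 in LSK. A Procr UMI was found in 1.31% of CMP, 0.536% of GMP and 0.0318% of MEP cells. A Mecom UMI was found in 1.61%, 0.760% and 0.796% of them. The shares in LSK cells were thus far above those in gates that should hold few cells with either gene. In 426145 LSK barcodes of 1 to 99 UMIs, which together held 1176057 UMIs, Procr stood at 71.4 CPM (UMIs of the gene scaled to a common total, as all levels below) and Mecom at 90.1 CPM, so both RNAs were also read outside cells.

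The selected cells had a median of 5614 UMIs and 2084 genes, and the others 6043.5 UMIs and 2196 genes. Mitochondrial UMIs had medians of 3.52% and 3.22%. The selected share was 8.56% in the lowest of 10 equal classes of LSK cells by UMIs, 16.5% in the third and 7.08% in the highest. Just under the UMI minimum, 11 of 396 barcodes with 1000 to 2109 UMIs met the gene rule, and just above it 22 of 301 with 2110 to 2499. The study's text states 10882 LSK cells, and 10883 barcodes reach the UMI minimum here. Between LSK and the other libraries 54 (CMP), 130 (GMP) and 87 (MEP) barcodes were shared, at most 1.62% of the smaller library. A doublet caller had not worked on these cells (it marked 0.00920%), so no cell was removed for the main values. In the 945 cells with the highest doublet scores lay 10.6% of the selected cells, 8.45% of the others, and 21.8% of the cells with all 3 genes.

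Hlf, the marker outside the rule, stood at 414 CPM in the selected cells and 252 CPM in the others. The log2 ratio was 0.72 (95% interval 0.66 to 0.77). After each cell was thinned at random to 2110 UMIs, Hlf was read in 58.0% of selected cells (55.2 to 60.8%) and in 40.6% of the others (39.6 to 41.6%). The third marker of the label thus went the same way as Procr and Mecom, as a shift in level and not as presence against absence. Hlf lies on chromosome 11 at 90336536 to 90390895 on the minus strand (mm10, GENCODE M21), Procr on chromosome 2 at 155751117 to 155755471 on the plus strand, and Mecom on chromosome 3 at 29951296 to 30548008 on the minus strand. In the other gates Hlf stood at 11.2 CPM (CMP), 3.56 CPM (GMP) and 1.16 CPM (MEP).

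Across the genome the selected cells were close to the other LSK cells. Of 5790 genes with 20 CPM or more in either group, leaving out the 3 rule genes, 14 (0.242%) were 2-fold or more higher in the selected cells and 17 (0.294%) 2-fold or more lower. Over 11646 genes with 1 CPM or more the median log2 ratio was 0.031. In 18.8% of these the interval lay wholly above 0, and in 14.3% wholly below. At a minimum of 1 CPM, 371 of 12048 genes (3.08%) were past 2-fold higher and 146 (1.21%) lower. These genes were read in the cells the rule chose, so they describe the chosen cells.

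**Figure D1:**
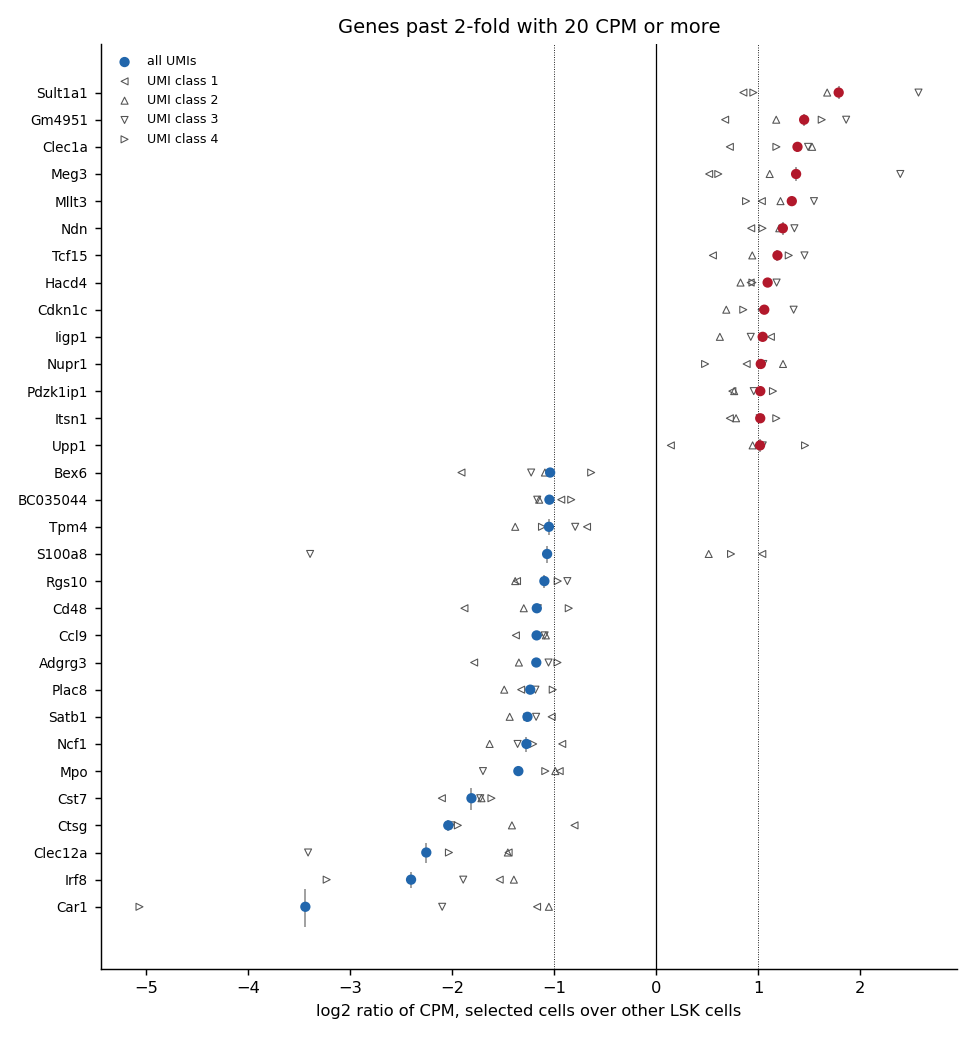
The 31 genes past 2-fold with 20 CPM or more in either group, by log2 ratio of CPM in the selected cells over the other LSK cells (x axis). Filled points use all UMIs, with exact 95% counting intervals as grey lines; open triangles repeat the ratio within each of 4 equal classes of LSK cells by UMIs. The 14 higher genes lie above 0 in all 4 classes, and S100a8 is the gene whose classes fall on both sides.

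Among the 14 higher genes the highest ratio was that of Sult1a1, a phenol sulfotransferase on chromosome 7 (126672865 to 126676432, minus strand). It stood at 24.99 CPM against 7.23 CPM, a log2 ratio of 1.79 (1.54 to 2.03). Within 4 equal classes of LSK cells by UMIs its log2 ratio ran from 0.85 to 2.57. Few cells held it: it was read in 4.14% of thinned selected cells and 1.71% of the others. Of the clusters described below, it stood at 232 CPM in cluster 11, which held 6.98% of the selected cells. In cluster 0, which held 34.2% of them, it stood at 23.5 CPM. Clec1a, a C-type lectin receptor, stood at 41.8 against 16.0 CPM (log2 ratio 1.39, 1.20 to 1.56). Mllt3, which encodes AF9, a subunit of the super elongation complex known for stem cell maintenance, stood at 98.1 against 39.0 CPM (1.33, 1.21 to 1.45). Mllt3 was read in 17.9% of the thinned selected cells and 9.16% of the others.

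Meg3, an imprinted long non-coding RNA, stood at 23.1 CPM against 8.92 CPM, a log2 ratio of 1.37. Its level was 177 CPM in cluster 11 and 39.2 CPM in cluster 0. Ndn, which encodes necdin and is also imprinted, stood at 23.0 against 9.71 CPM. Cdkn1c, an imprinted gene for the CDK inhibitor p57, stood at 46.6 against 22.3 CPM, and was read in 10.6% of thinned selected cells against 5.06%. These genes were near 0 outside the LSK gate: Meg3 had 0 CPM in CMP, 0.01 in GMP and 0.05 in MEP cells, and Cdkn1c had 1.08, 0.46 and 0.80 CPM.

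Pdzk1ip1, a small membrane protein also called MAP17, was the most abundant of the 14, with 130 CPM against 64.1 CPM (log2 ratio 1.02, 0.92 to 1.12). Hacd4, of the fatty acid elongation enzymes, stood at 100.2 against 47.0 CPM. Tcf15, a bHLH transcription factor, stood at 32.2 against 14.1 CPM. Iigp1, an interferon-induced GTPase, stood at 47.3 against 22.9 CPM, and Gm4951 at 26.6 against 9.74 CPM. Nupr1, a stress-induced nuclear protein, Itsn1, an endocytic scaffold, and Upp1, a uridine phosphorylase, had log2 ratios of 1.03, 1.02 and 1.02. In the lowest of the UMI classes the ratio of Upp1 was 0.14. All 14 were above 0 in each of the 4 classes. The higher genes also moved with the bar on Dntt. Without that clause 5 genes were past 2-fold at 20 CPM. The log2 ratios were then 1.58 (Sult1a1), 1.17 (Meg3), 1.11 (Mllt3), 1.10 (Clec1a), 1.06 (Tcf15) and 1.04 (Ndn). They were within 2-fold for Iigp1 (0.92), Hacd4 (0.91), Itsn1 (0.89), Cdkn1c (0.87), Nupr1 (0.85), Upp1 (0.85) and Pdzk1ip1 (0.81).

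Several of the 17 lower genes stood far higher in the CMP and GMP gates. Irf8, a transcription factor of monocyte and dendritic cell fate, stood at 11.9 CPM in the selected cells and 62.8 CPM in the others (log2 ratio -2.40, -2.72 to -2.11). Its level was 625 CPM in CMP and 495 CPM in GMP cells. Ctsg, a granule protease, stood at 25.4 against 104 CPM (-2.04). Mpo, the myeloperoxidase of primary granules, stood at 42.9 against 109.5 CPM (-1.35), and was read in 6.09% of thinned selected cells against 12.9%. Plac8, abundant in myeloid progenitors, stood at 457 against 1077 CPM (-1.24, -1.28 to -1.19). Clec12a, an inhibitory lectin of myeloid cells, had a log2 ratio of -2.25, and Cst7, cystatin F, -1.81. Part of these differences came with the bar on Dntt. Without the Dntt clause the log2 ratios were -1.58 (Irf8), -1.41 (Ctsg), -1.04 (Mpo), -0.87 (Plac8), -1.46 (Clec12a) and -1.14 (Cst7).

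Cd48, the SLAM family antigen whose absence is used to sort stem cells, stood at 58.0 CPM against 131 CPM (log2 ratio -1.17, -1.31 to -1.04). It was read in 8.44% of thinned selected cells (6.95 to 10.1%) and 19.1% of the others (18.3 to 19.9%). Satb1, a chromatin organiser of lymphoid cells, stood at 34.8 against 83.6 CPM (-1.26). Ncf1, a subunit of the NADPH oxidase, Ccl9, a chemokine, and Adgrg3, an adhesion receptor, had log2 ratios of -1.27, -1.17 and -1.18. Rgs10, Tpm4, BC035044 and Bex6 completed this group with ratios between -1.10 and -1.04. Without the Dntt clause the log2 ratios were within 2-fold: -0.89 (Cd48), -0.68 (Satb1), -0.70 (Ncf1), -0.78 (Ccl9) and -0.76 (Adgrg3). Those of Rgs10 and Tpm4 were then -0.67 and -0.82.

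The remaining pair differed from these. Car1, a carbonic anhydrase of the erythroid lineage, had 2.40 CPM in the selected cells and 26.0 CPM in the others, yet it was read in 0.893% of thinned selected cells and 0.892% of the others. S100a8, a neutrophil calprotectin subunit, had 11.6 against 24.4 CPM, with 1.79% against 1.504% of thinned cells. Both levels lay in a few comparison cells. Without 393 cells of 4 small clusters that held few selected cells (a choice made after seeing the data), the log2 ratio of Car1 turned from -3.44 to 0.15 and that of S100a8 from -1.07 to 0.60. Without cells that had 3 or more G2 and M UMIs, S100a8 was also higher, at 0.56.

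**Figure D2:**
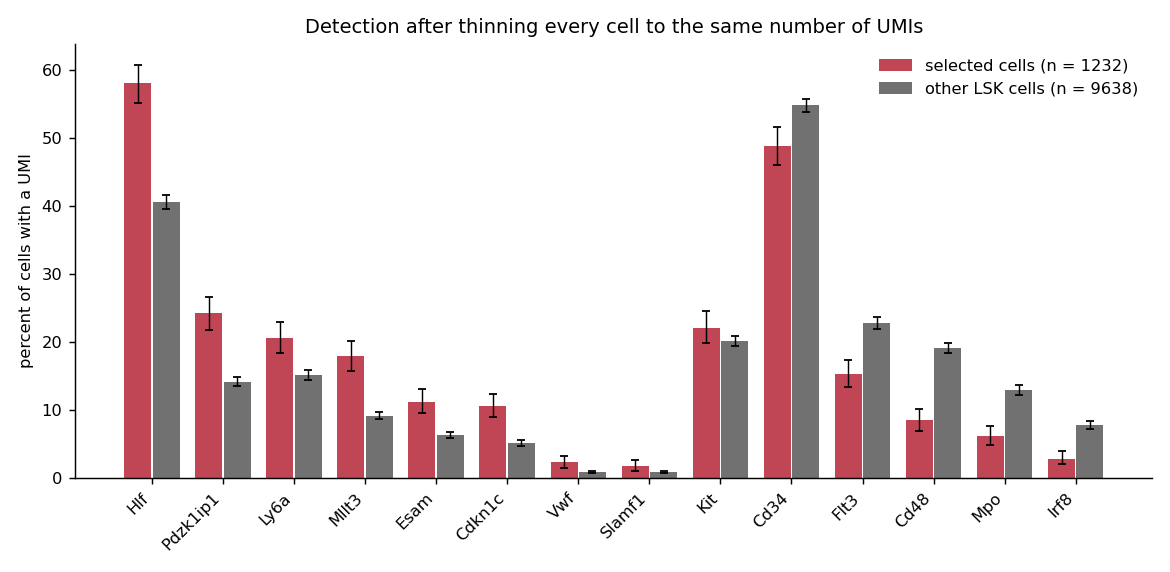
Percent of cells with at least 1 UMI (y axis) after every cell was thinned to 2110 UMIs, for 14 genes in the 1232 selected and the 9638 other LSK cells. Bars are shares and lines exact binomial 95% intervals. Hlf was read in 58.0% against 40.6%, Cd48 in 8.44% against 19.1%.

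Procr is a rule gene, Hlf is a marker outside the rule, and Sult1a1 had the highest ratio, while Cd48 and Mpo were lower. The promoters of these 5 genes are shown because they stand for the sides of the comparison. Each is the RefSeq promoter of GRCm38.p6, 250 bases before to 50 after the start, 5′ to 3′ on the gene's strand. They lie at chr2:155750967-155751266 (plus), chr11:90390868-90391167 (minus), chr7:126676369-126676668 (minus), chr1:171681742-171682041 (plus) and chr11:87793534-87793833 (plus). Capitals mark GGAAGT, a core bound by ETS factors, on either strand.
Procr: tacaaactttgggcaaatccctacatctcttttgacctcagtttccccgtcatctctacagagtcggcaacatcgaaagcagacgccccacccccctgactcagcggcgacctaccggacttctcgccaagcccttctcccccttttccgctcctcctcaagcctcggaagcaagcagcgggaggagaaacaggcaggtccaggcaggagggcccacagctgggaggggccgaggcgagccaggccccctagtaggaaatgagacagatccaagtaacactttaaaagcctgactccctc
Hlf: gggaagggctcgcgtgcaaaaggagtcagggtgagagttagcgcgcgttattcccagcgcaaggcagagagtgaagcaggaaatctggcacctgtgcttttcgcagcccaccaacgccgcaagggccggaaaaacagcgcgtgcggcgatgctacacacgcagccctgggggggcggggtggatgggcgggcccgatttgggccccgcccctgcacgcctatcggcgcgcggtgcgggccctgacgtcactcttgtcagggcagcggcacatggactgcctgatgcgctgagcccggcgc
Sult1a1: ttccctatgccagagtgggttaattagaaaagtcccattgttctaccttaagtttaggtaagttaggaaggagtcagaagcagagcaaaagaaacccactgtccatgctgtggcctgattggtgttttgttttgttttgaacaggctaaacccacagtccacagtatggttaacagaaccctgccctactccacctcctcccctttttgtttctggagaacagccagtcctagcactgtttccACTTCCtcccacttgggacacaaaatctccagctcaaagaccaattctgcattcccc
Cd48: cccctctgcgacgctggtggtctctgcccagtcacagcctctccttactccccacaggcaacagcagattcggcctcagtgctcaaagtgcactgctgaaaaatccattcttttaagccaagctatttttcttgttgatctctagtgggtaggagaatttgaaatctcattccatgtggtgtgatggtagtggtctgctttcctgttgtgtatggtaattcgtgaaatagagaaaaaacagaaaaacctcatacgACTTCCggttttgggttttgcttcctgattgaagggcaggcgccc
Mpo: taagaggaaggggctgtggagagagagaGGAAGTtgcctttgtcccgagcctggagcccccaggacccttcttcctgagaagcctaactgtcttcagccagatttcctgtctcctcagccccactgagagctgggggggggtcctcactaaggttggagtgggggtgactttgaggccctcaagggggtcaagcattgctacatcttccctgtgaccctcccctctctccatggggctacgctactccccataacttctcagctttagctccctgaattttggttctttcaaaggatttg
GGAAGT was found on either strand in 11 of 22 promoters of the lower genes, in 1 of 13 of the higher genes, and in 23.8% of all 32851 promoters in the table. GATAA, a core bound by GATA factors, was found in 2 of 22 and 2 of 13, and in 25.4% of all. Promoters were in the table for 9 of the 14 higher and 16 of the 17 lower genes, some with more than 1 promoter. Counted by gene, GGAAGT was found in 8 of 16 lower and 1 of 9 higher genes, the latter being Sult1a1. GATAA was found in 2 of 16 and 2 of 9. None of the 5 shown holds GATAA. Such a match is only a run of letters.

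Of 43 genes of a stem cell list with 1 CPM or more (the 3 rule genes aside), 40 had log2 ratios above 0, 37 with intervals wholly above it. The median was 0.52, against 0.031 over all genes. The counts of this and the later lists stand beside those of all 11646 genes with 1 CPM or more. Of these, 55.4% had ratios above 0, and intervals lay above 0 in 18.8% and below in 14.3%. The lists were chosen with earlier results of these data known. Only 4 of the 43 were past 2-fold at 20 CPM (Sult1a1, Mllt3, Tcf15 and Pdzk1ip1), beside 0.242% of all genes at 20 CPM. Fgd5, whose reporter marks stem cells, stood at 5.80 against 2.22 CPM, and Hoxb5, another such reporter gene, at 8.71 against 3.75 CPM. The abundant stem and progenitor factors moved less. Lmo2, a bridging factor of the TAL1 complex, stood at 1085 against 881 CPM (log2 ratio 0.30), Meis1, a Hox cofactor, at 191 against 146 CPM (0.39), and Gata2 at 92.6 against 67.6 CPM (0.45). Ifitm1, an interferon-induced membrane protein, stood at 1112 against 728 CPM (0.61). Txnip, a thioredoxin inhibitor, stood at 290 against 184 CPM (0.65). The 3 genes of the list with ratios below 0 were Egr1 (-0.18), Zfp36 (-0.08) and Hmga2 (-0.02, with an interval from -0.45 to 0.38).

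The rest of the stem cell list lay between these values. Trim47, a ubiquitin ligase family member, stood at 73.3 against 37.6 CPM (log2 ratio 0.96, 0.83 to 1.09), and Nkx2-3, a homeobox factor, at 67.4 against 36.4 CPM (0.89). Gng11, a G protein gamma subunit, stood at 159 against 89.7 CPM (0.82). Fhl1 (13.1 against 7.15 CPM), Ctnnal1, a catenin-like gene used as a stem cell reporter (8.20 against 4.77 CPM), and Ctsf (27.6 against 16.6 CPM) were within 2-fold. Prdm16, a zinc finger regulator of stem cell upkeep, stood at 11.5 against 7.41 CPM (0.63). Gstm1, Mettl7a1, Myct1, Sqrdl, Gimap1 and Angpt1 had log2 ratios from 0.44 (Angpt1) to 0.58 (Gstm1). The transcription factors Tal1 and Erg, the RNA-binding protein Msi2 and the GTPase Gimap6 had ratios from 0.28 (Erg) to 0.35 (Msi2). Hoxa9 (0.18), Limd2 (0.17) and Rbpms (0.16) were closer still to 0, and the intervals of Cd82, Ubl3 and Gfi1b spanned it. Under median of ratios scaling, which shifts every ratio by -0.06, Gfi1b (0.06) lies below 0.

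Antigens used to sort stem cells went both ways. Slamf1 encodes CD150, which is kept on stem cells. It stood at 7.57 CPM against 4.64 CPM (log2 ratio 0.71, 0.28 to 1.11), and was read in 1.70% of thinned selected cells (1.06 to 2.59%) and 0.861% of the others (0.686 to 1.07%). Esam stood at 52.4 against 27.3 CPM (0.94). Ly6a, which encodes the gate antigen SCA1, stood at 109.9 against 74.4 CPM (0.56). Kit, the other gate antigen, stood at 121 against 98.0 CPM (0.31). Cd34 was lower, at 340 against 406 CPM (-0.26, -0.31 to -0.20), as was Flt3, the receptor of multipotent and lymphoid-primed progenitors, at 85.3 against 136.5 CPM (-0.68, -0.79 to -0.57). Cd27 (214 against 217 CPM) and Tek (3.28 against 2.86 CPM) had intervals that span 0. Cd63, a tetraspanin, stood at 475 against 323 CPM (0.56), Eng, endoglin, at 62.7 against 46.2 CPM, and Itga6 at 42.7 against 31.4 CPM. Robo4 (8.08 against 5.61 CPM) and Cd9 (119 against 98.5 CPM) were also higher. Cd244, a SLAM family antigen of progenitors, was lower at 15.9 against 21.6 CPM (-0.44), as was Csf2rb, the common beta receptor (log2 ratio -0.42), while the interval of Ly9 (-0.20) spans 0. Over the 24 antigens 12 intervals lay above 0 and 7 below, beside 18.8% and 14.3% over all genes.

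The Hox group and the dormancy list lay mostly above 0. All 12 measured Hox genes and cofactors had ratios above 0, 10 with intervals above it, with a median of 0.43. Hoxb4 stood at 34.5 against 23.1 CPM and Hoxb2 at 12.2 against 6.89 CPM, while Hoxa7 was level at 69.7 against 69.3 CPM and lies below 0 under TMM or median of ratios scaling. Of 9 genes of a list on retinoid response and dormancy, 8 intervals lay above 0, with a median of 0.58. This list shares Cdkn1c with the CDK inhibitor list, whose median was -0.01. In that list Cdkn1b (28.0 against 28.5 CPM) had an interval from -0.23 to 0.18, and Cdkn1a, p21, was lower at 18.1 against 31.7 CPM.

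Genes of the lymphoid-primed and granulocyte-monocyte lists were mostly lower, with exceptions. In the lymphoid-primed list 15 of 17 genes had intervals below 0 and the median was -0.79. Dntt itself was barred by the rule. Without that clause the median was -0.53. Cd52 stood at 131 against 238 CPM and Notch1 at 18.9 against 33.5 CPM. Mef2c (273 against 322 CPM) and Lsp1 (141 against 154 CPM), more abundant members, were nearer to level. Il7r, the interleukin-7 receptor, gave 3 UMIs in all selected cells. Ltb, lymphotoxin beta, went the other way at 325 against 188 CPM (0.79, 0.73 to 0.85).

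In the granulocyte-monocyte list 10 of 15 intervals lay below 0, with a median of -0.63. Without the Dntt clause that median was -0.42. Elane, neutrophil elastase, gave 7 UMIs in the selected cells, 0.88 CPM against 5.84 CPM. Nkg7 stood at 207 against 298 CPM (-0.52) and Calr, calreticulin, at 520 against 590 CPM (-0.18). Of the 15 genes 3 had ratios above 0, but only 1 interval lay wholly above it. That was the interval of Prtn3, proteinase 3, at 550 against 490 CPM (0.17, 0.12 to 0.21). The erythroid list was split, with 5 of 10 genes above 0 and a median of -0.22. Of its intervals 3 lay above 0 and 4 below, and the median kept its sign in 10 of 14 other settings. In this list Car2, a carbonic anhydrase, stood at 1546 against 1170 CPM (0.40), and Hbb-bt, a beta globin, at 72.8 against 38.4 CPM (0.92). Klf1 and Gata1, which drive the erythroid programme, gave 15 and 18 UMIs (log2 ratios -1.15 and -1.26). Klf1 is among the leading genes of cluster 12 below, 60 comparison cells led by Car1. The ratios of Klf1 and Gata1 were not recomputed without the small clusters. Mast cell and basophil genes were scarce: Cpa3, a mast cell protease, stood at 13.5 against 24.05 CPM and Mcpt8, of basophils, at 2.78 against 11.5 CPM.

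Platelet lineage genes were mixed. Vwf, von Willebrand factor, stood at 10.9 against 3.81 CPM (log2 ratio 1.51, 1.14 to 1.87), and Clu, clusterin, at 9.09 against 4.97 CPM (0.87). Pf4, platelet factor 4, was level in the sum at 87.1 against 88.6 CPM, but was read in 13.2% of thinned selected cells and 9.08% of the others. Without the 4 small clusters named for Car1, 1 of which had Pf4 at 1231 CPM, its log2 ratio went from -0.03 to 0.58, and it kept its sign in 8 of 14 other settings. Fli1, an ETS factor, stood at 83.0 against 73.8 CPM (0.17) and Plek, pleckstrin, at 58.2 against 66.2 CPM (-0.19). Itga2b, CD41, was lower at 18.4 against 24.3 CPM (-0.40). Over the 17 genes 9 intervals lay above 0 and 5 below, beside 18.8% and 14.3% over all genes. Class II genes were higher: Cd74, the invariant chain, stood at 321 against 228 CPM and H2-Aa at 187 against 133 CPM, with H2-Ab1 nearly level at 196 against 186 CPM. Lck, a T cell kinase, stood at 20.6 against 29.4 CPM, Egfl7, of endothelium and stem cells, at 206 against 244 CPM, and Pdgfrb, of stroma, at 11.7 against 15.4 CPM.

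**Figure D3:**
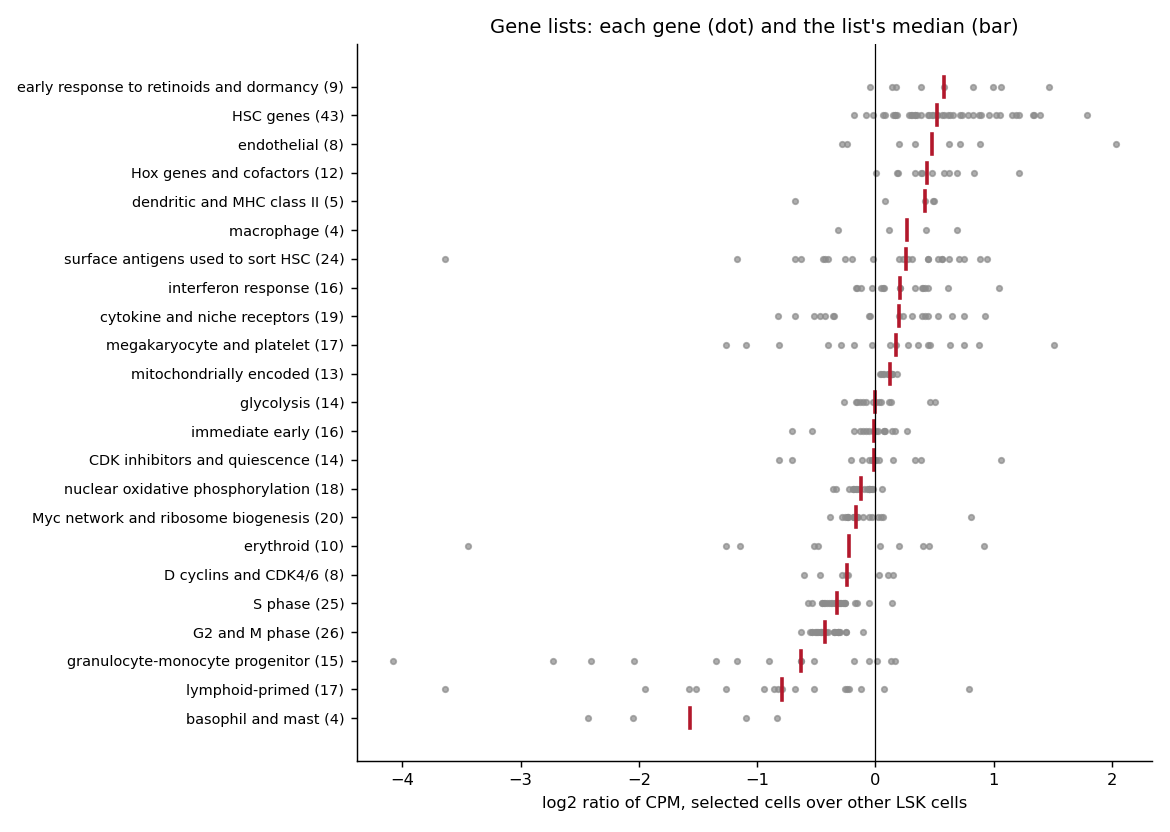
Log2 ratio of CPM, selected over other LSK cells (x axis), for each gene (dot) of the lists with 4 or more genes measured, the number of genes in parentheses, and each list's median (bar). The stem cell list has a median of 0.52 and the lymphoid-primed list one of -0.79, against 0.031 over all genes.

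Markers of cells that should not be in the gate were also read. Of the 14 endothelial genes 8 reached 1 CPM, among them Tie1 (24.99 against 13.5 CPM), Emcn (26.6 against 17.3 CPM), Cldn5 (7.32 against 1.78 CPM, log2 ratio 2.04) and Pecam1 (31.3 against 38.1 CPM). The list's summed level was 313 CPM in the selected and 326 CPM in the other cells, most of it from Egfl7. The median ratio of the 8 was 0.48, with 6 above 0, 4 intervals above 0 and 2 below. Several of these genes are known in stem cells as well. Cdh5, the cadherin that defines endothelium, gave 1 UMI in the selected cells and 0 in the others. Ebf1, a factor of B cell fate, gave 0 UMIs in the selected cells, and Cd79b stood at 44.5 against 41.95 CPM. Macrophage genes summed to 16.0 and 14.1 CPM, stromal genes to 13.0 and 16.6 CPM, and B cell genes to 47.8 and 48.2 CPM. The part of other cells in the differences was not tested.

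Genes of the cell cycle were lower. The 25 S phase genes summed to 2140 CPM in the selected cells and 2650 CPM in the others (log2 ratio -0.31, -0.33 to -0.29), with 23 of 25 intervals below 0. The 26 G2 and M genes summed to 1571 and 2070 CPM (-0.40, -0.42 to -0.37), with 25 of 26 below. Over all genes 14.3% of intervals lay below 0. Dut, a nucleotide phosphatase, stood at 227 against 295 CPM and Pcna, the replication clamp, at 161 against 193 CPM. Birc5, survivin, stood at 104 against 154 CPM. Mcm6 (-0.29) and Slbp (-0.26) of S phase, Smc4 (-0.25) of mitosis and Cdk4 (-0.23), a kinase of G1, differed less, and the intervals of Ccnd3, Cdkn2d, Btg1 and Klf2 span 0. Top2a, a topoisomerase, stood at 164 against 230 CPM and Mki67, the Ki-67 antigen, at 73.3 against 101.5 CPM. After thinning, 18.3% of the selected cells (16.2 to 20.6%) and 28.7% of the others (27.8 to 29.6%) had 3 or more G2 and M UMIs. Without thinning the shares were 48.4% and 56.7%.

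The size of this difference varied with the cells compared, with no steady trend over UMIs per cell. Within the 4 classes of LSK cells by UMIs the G2 and M ratio was -0.24, -0.76, -0.03 and -0.18, and the interval of the third spans 0 (-0.09 to 0.02). The thinned share with 3 or more such UMIs was lower in the selected cells in each class, from 8.31% against 14.0% in the lowest to 50.6% against 62.0% in the highest. With the other cells weighted to the same UMI deciles the ratio was -0.18. Without the Dntt clause it was -0.17, and with the rule applied to thinned cells, which kept 320, it was -0.75. Cdk6, which sets the speed of exit from quiescence, stood at 135 against 187 CPM (-0.47), while the D cyclin Ccnd2 stood at 377 against 341 CPM (0.15).

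Metabolic and stress lists were near the centre. Glycolysis genes had a median of -0.01 and nuclear genes of oxidative phosphorylation one of -0.12. Gapdh stood at 762 against 853 CPM, Ldha at 474 against 519.7 CPM and Pkm, nearly level, at 569 against 566 CPM. Of the respiratory chain genes, Ndufa4 stood at 911 against 1146 CPM (-0.33), Atp5b at 704 against 805 CPM and Cox4i1 at 878 against 896 CPM. The 13 mitochondrially encoded genes had a median of 0.12, all above 0 with total scaling, among them mt-Co1 (0.18) and mt-Atp6 (0.10). The lowest, at 0.04, is smaller than the shift of the other scalings. Myc network genes and those that build ribosomes gave a list median of -0.17, with Npm1 at 1690 against 1898 CPM and Fbl at 321 against 383 CPM. Ncl (-0.15) and Nop56 (-0.24) lay alongside, and Mycn went the other way at 66.6 against 38.2 CPM. Immediate early genes, which respond to handling within minutes, had a median of -0.01, with Jun at 1853 against 1681 CPM and Fos at 2044 against 1947 CPM. Jund stood at 1584 against 1317 CPM (0.27), Dusp1 was level (0.02), and Btg2, an antiproliferative gene, stood at 48.1 against 78.4 CPM (-0.71). The interferon list had a median of 0.21, led by Iigp1, with Ifitm3 at 932 against 695 CPM (0.42) and Ifitm2 and Ly6e near level (0.07 and 0.05).

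Levels followed the number of rule genes read, but the steps differ in Dntt as well. The selected cells held no Dntt, while cells with neither Procr nor Mecom, or with either alone, were taken with or without it. The step up to the selected cells thus cannot be laid to Procr and Mecom alone. Hlf stood at 204 CPM (199 to 209) in 4583 cells with neither Procr nor Mecom, 277 CPM in those with Mecom alone, 327 CPM in those with Procr alone, and 414 CPM in the selected cells. Within the selected cells it was 379 CPM in the 549 with 1 UMI of each and 496 CPM in the 176 with 2 or more of each. Mllt3, outside the rule, took the same order: 27.2, 48.9, 49.6 and 98.1 CPM over those states, then 76.5 CPM with 1 UMI of each and 163 CPM with 2 or more. Mecom alone and Procr alone could not be told apart for Mllt3 (46.1 to 51.8 and 45.2 to 54.3 CPM). Cd48 ran the opposite way, from 160 CPM with neither to 33.7 CPM with 2 or more of each.

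The Dntt clause set apart cells that looked unlike the selected ones. In the 376 cells with all 3 genes Hlf stood at 298 CPM, Mllt3 at 48.2 CPM and Pdzk1ip1 at 69.3 CPM. These levels were near those of cells with Mecom alone. Plac8 stood at 924 CPM there against 457 CPM in the selected cells. These 376 cells had a median of 7471.5 UMIs, above the 5614 of the selected cells, and the highest share among the top doublet scores. The part of doublets in them was not tested.

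**Figure D4:**
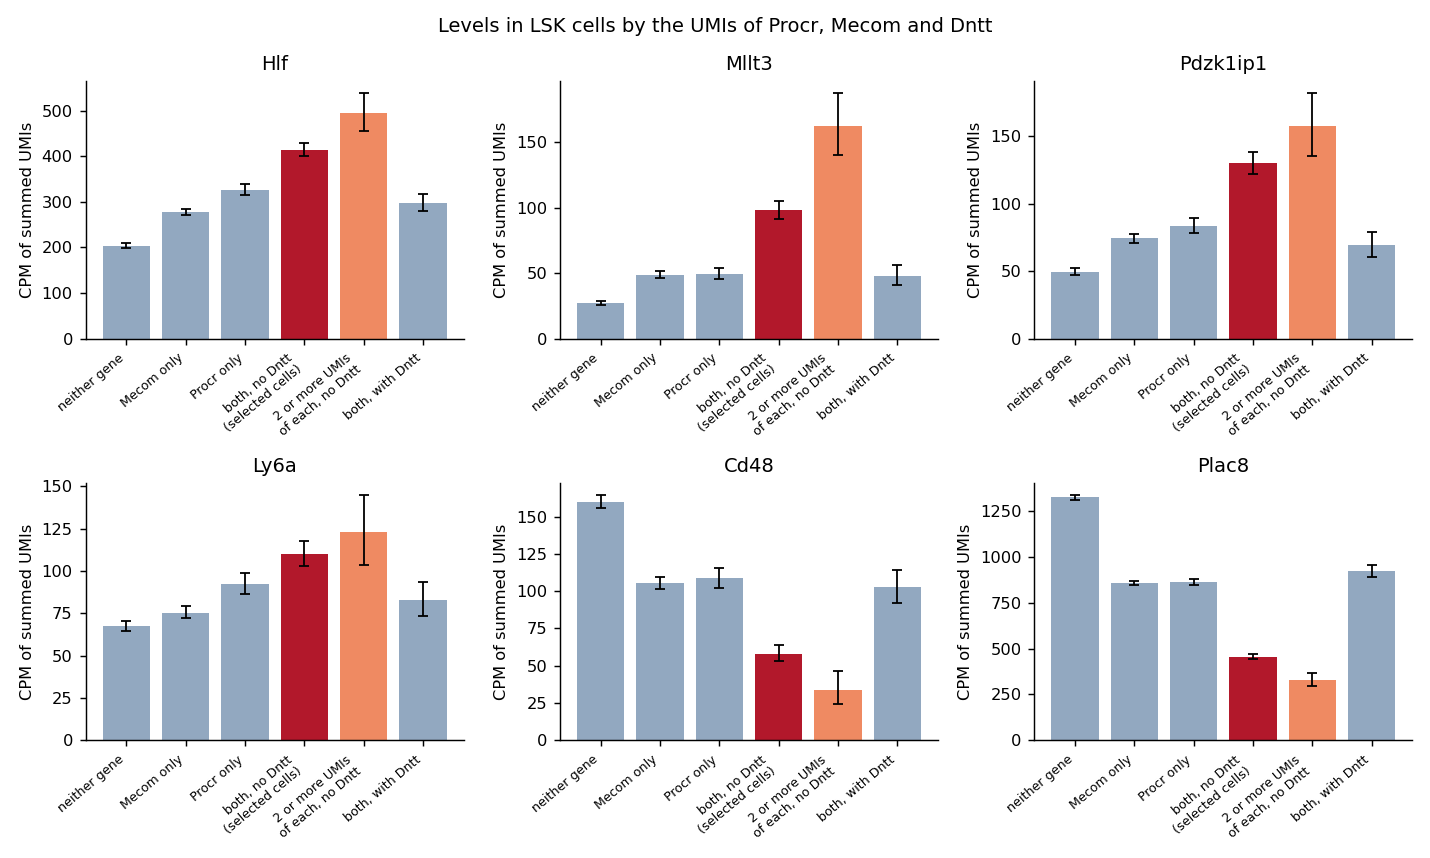
Summed UMIs of 6 genes as CPM (y axes, from 0) in LSK cells by which rule genes were read, with exact Poisson 95% intervals as lines. Hlf, Mllt3, Pdzk1ip1 and Ly6a are lowest with neither gene and highest with 2 or more UMIs of each, and Cd48 and Plac8 run the other way. Cells with Mecom alone, Procr alone or neither gene were taken with or without Dntt.

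The selected cells differed among themselves. Vwf was read in 68 of them, which had a median of 6010 UMIs against 5570 in the rest. Between these groups 329 of 6180 genes (5.32%) were past 2-fold at 20 CPM, a share that rests on few UMIs in the smaller group. Cldn5, a tight junction protein, stood at 68.9 CPM with Vwf and 3.36 CPM without. Clu stood at 83.6 and 4.30 CPM, Sult1a1 at 117 and 19.1 CPM, and Nupr1 at 144 and 25.8 CPM. Slamf1 stood at 41.8 and 5.37 CPM, and Apoe, apolipoprotein E, at 980 and 271 CPM. Cd34 stood at 190 CPM with Vwf and 349 CPM without, Flt3 at 39.7 and 88.2 CPM, and Mpo at 14.6 and 44.7 CPM. Procr itself was level at 211 and 223 CPM. Hlf was lower with Vwf, at 345 against 418 CPM. At equal depth Vwf and Slamf1 were read together in 5 selected cells, where the product of their shares gives 0.477.

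A split by Cd48 was added after seeing the data. It was read in 243 selected cells, with a median of 7827 UMIs against 5295 in the 989 without, and 97 of 5970 genes (1.62%) were past 2-fold. Mpo stood at 112 CPM with Cd48 and 18.5 CPM without, Ctsg at 64.5 and 11.5 CPM, and Plac8 at 845 and 319 CPM. Mllt3 stood at 36.1 and 120 CPM, Cdkn1c at 17.3 and 56.9 CPM, and Clec1a at 12.0 and 52.3 CPM. At equal depth no selected cell held both Slamf1 and Cd48, against 1.77 by the product, 2 held both Vwf and Cd48, against 2.36, and 22 held both Cd48 and Mpo, against 6.33.

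The 226 selected cells with 3 or more G2 and M UMIs after thinning had a median of 8841.5 UMIs, against 5328 in the other 1006. Between them 268 of 6013 genes (4.46%) were past 2-fold, 219 of them higher in the dividing cells and including the genes that made the split. Of genes outside it, Mllt3 stood at 45.3 CPM in these cells and 117 CPM in the rest, Meg3 at 7.72 and 28.5 CPM, and Ly6a at 59.3 and 128 CPM. Hlf stood at 321 and 446 CPM, and Mpo at 82.0 and 29.1 CPM. Cd34 was near level at 359 and 333 CPM.

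When LSK cells were clustered without the 3 rule genes, the selected cells lay in 12 of 15 clusters. Cluster 0, led by Clec1a, Mllt3 and Pdzk1ip1, held 34.2% of them, and they were 24.5% of its 1720 cells (22.5 to 26.6%). Cluster 11, whose leading genes include Cldn5, Sult1a1, Ramp2 and Vwf, was the richest: 86 of its 232 cells were selected, 37.1% (30.8 to 43.6%). In cluster 11 Mllt3 stood at 362.5 CPM, Sult1a1 at 232 CPM, Slamf1 at 52.0 CPM and Apoe at 1289 CPM, and Cd48 at 3.84 CPM. Of the endothelial genes, Kdr stood at 13.8 CPM there, the highest of the 15 clusters, while Cdh5 and Stab2 were at 0 CPM, as they were in most clusters. Ptprc, the leukocyte antigen CD45, stood at 91.0 CPM. In cluster 0 Slamf1 stood at 10.0 CPM and Cd48 at 13.7 CPM. Hlf did not order the clusters by their share of selected cells. It stood at 378 CPM in cluster 11, 517 CPM in cluster 0 and, the highest, 520 CPM in cluster 8. Of the 399 cells of cluster 8, 54 were selected (13.5%), and Flt3 stood at 165 CPM there.

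Cluster 1, led by Mgst1 and Ltb, held 19.0% of the selected cells, with Hlf at 471 CPM, Flt3 at 145 CPM and Mllt3 at 44.7 CPM. Clusters 2 and 6, led by S phase genes such as Ung, held 9.98% and 7.39%. Cluster 5, led by Ube2c and other mitotic genes, held 7.31%. Cluster 7, led by Cox6a2, Arpp21 and Irf8, held 3 of its 522 cells, 0.575%, with Dntt, which the rule barred, at 1067 CPM. Cluster 12, led by Car1, and the small clusters 13 (led by Ifi205 and Batf3) and 14 (led by Ncr1 and Xcl1), of 60, 21 and 16 cells, held none.

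**Figure D5:**
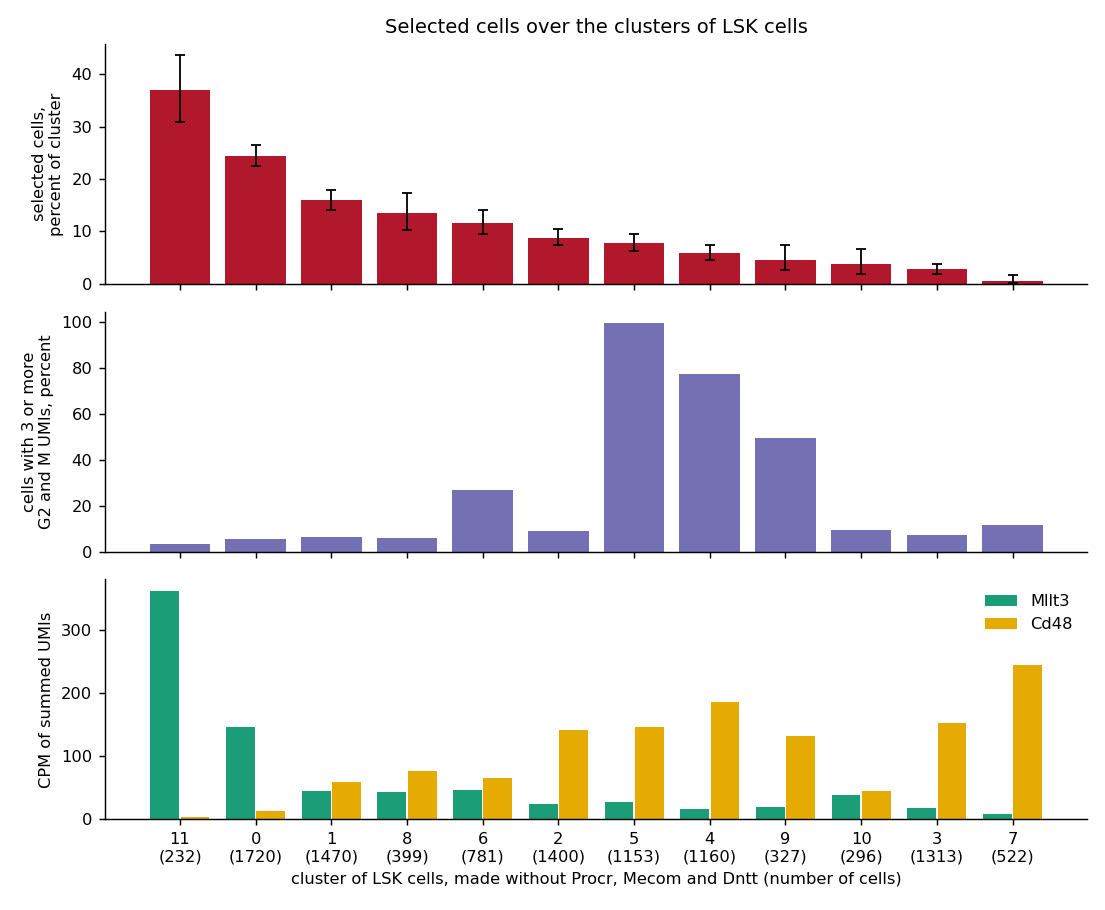
For the 12 clusters with 100 or more LSK cells, ordered by their share of selected cells: that share with exact binomial 95% intervals (top), the share of cells with 3 or more G2 and M UMIs after thinning (middle), and Mllt3 and Cd48 as CPM (bottom). Clusters 11 and 0 have the highest selected shares, 37.1% and 24.5%, with high Mllt3 and low Cd48.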

How the data were processed

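Single-cell 3' RNA libraries of 4 sorted marrow gates were measured; of the 5 samples, both CMP samples hold identical values and were counted once. The deposited matrices hold raw UMI counts per gene and barcode, not normalized, per the file headers. Per the submitters' processing notes the genome build was mm10, and the tools include Seurat 2.3.0, Cell Ranger 2.0.0 and CASAVA 1.8.2. No source used here gives their roles. The selected cells and the gene lists were chosen with earlier results of these data known.

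Counts were summed over cells of a group and divided by the group's total (CPM). Ratios carry exact conditional binomial 95% intervals, shares Clopper-Pearson ones; sums under 3 counts were raised to 3, and PCR and cell-to-cell variation are not covered. Cells were thinned to 2110 UMIs (seed 0). Genes to name were taken from the rule genes, Hlf, the 15 highest and 15 lowest past 2-fold and 20 CPM, the stem cell and surface lists from 5 CPM, and of each other list the 4 most abundant and any past the rule; others in the text (genes of the splits, the clusters and the less abundant list members such as Il7r, Elane, Vwf, Clu, Hoxb2, Hoxb4, Cdkn1a, Cdkn1b and Mycn) were named after their values were seen, and a few genes of the rule are given only within list counts or are not reported here. Clusters came from scanpy (2000 variable genes, 30 components, 15 neighbours, Leiden resolution 1). TMM factors came from edgeR 4.0.16. On simulated data with 200 of 27998 genes changed 3-fold, 99% of the changed genes were recovered for this comparison. None of the rest was called, but the rest includes genes under 20 CPM, which the rule cannot call. The changed genes were all taken from those with 20 CPM or more. Counts were drawn for the group sums without cell-to-cell variation. A call that rests on a few cells, as for Car1 and S100a8, was thus not tested. A 3-fold change lies well past the 2-fold cut, so the recovery of changes near 2-fold was not tested. Several of the higher genes lie there, such as Pdzk1ip1, Itsn1 and Upp1, each with a log2 ratio of 1.02. Of 27998 gene IDs, 27645 were in GENCODE M21, whose build GRCm38 is mm10.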

Additional observations from a re-analysis of the deposited data

Results flagged for a closer look

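In LSK barcodes outside the cell filter, with 1000 to 2109 UMIs, 11 of 396 held Procr and Mecom and no Dntt, a signal in data the comparisons leave out. These barcodes were not added to the selected cells, and whether they are intact cells was not tested.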

How the results depend on the processing

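Of 18 other settings, 1 of them added after seeing the data, the gene counts were recomputed under all 18, the ratios, list medians and cell cycle value under 14 and the number of selected cells under 9. Thinned shares, splits, joint readings, clusters and motif counts were not recomputed. No paired analysis was possible because each gate is 1 library. Counts of genes past 2-fold moved most. The count higher in the selected cells was 14, and 8 with median of ratios factors, 9 with TMM, 87 at 1.5-fold, 3 at a minimum of 50 CPM, 86 at 5 CPM, 2067 with no minimum beyond 3 counts, 7 with the others weighted to the same UMI deciles, 55 with the rule after thinning, 5 without the Dntt clause, 56 with 2 UMIs of each rule gene, and 43 against cells with neither gene. The count lower was 17, and 61 at 1.5-fold, 10 at 50 CPM, 49 at 5 CPM, 187 with no minimum, 70 after thinning, 8 without the Dntt clause, 42 with 2 UMIs of each, and 30 against cells with neither gene. The number of selected cells was 320 after thinning, 176 with 2 UMIs of each and 764 at 5000 UMIs. The G2 and M log2 ratio of -0.40 stayed below 0 in every setting in which it was computed: -0.46 with median of ratios factors, -0.45 with TMM, -0.43 with cells weighted equally, -0.18 with UMI deciles, -0.75 after thinning, -0.17 without the Dntt clause, -0.33 with Hlf in addition, -0.66 with 2 UMIs of each, -0.32 at 5000 UMIs and -0.10 among cells with fewer than 3 G2 and M UMIs. The last of these settings picks cells by the same G2 and M genes, so it is no separate check. Median of ratios and TMM shifted all log2 ratios by -0.06. Of the 28 genes past 2-fold that were followed, 26 kept their sign in all 14 settings that recompute ratios. Fewer stayed past 2-fold in the same direction. The number was 13 without the Dntt clause and 20 without cells with 3 or more G2 and M UMIs. It was 21 with UMI deciles, 22 with median of ratios factors, and 23 to 28 in the other settings. The exceptions in sign were S100a8 (0.56 without cells with 3 or more G2 and M UMIs, 0.60 without 4 small clusters) and Car1 (0.15 without those clusters). Pf4, not past 2-fold, went from -0.03 to 0.58 without those clusters. Of 26 list medians 20 kept their sign. Depth limits low genes such as Slamf1 and Fgd5 to 60 and 46 UMIs in the selected cells.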
